A study of Mus musculus with 4 samples.

Results

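This account describes the inhibitory receptors of B cells and their companions, 9 genes taken by symbol from the deposited count table: Cd22, Siglecg, Fcgr2b, Pirb, Cd72, Btla, Cd5, Cd37 and Inpp5d. They are 9 of the 55401 genes in that table, and all 9 were among the 14123 genes left by the filter on low counts. The RNA came from follicular B cells (FOB cells), mature B cells that circulate through the follicles of the spleen, sorted as B220+ CD93- CD23 high CD21 low. There were 2 libraries from wild-type mice (WT) and 2 from mice labelled HFKO, in which the RNA-binding protein hnRNPF is lost from B cells (Hnrnpf bKO). The mice were C57BL/6 and 7 weeks old, and both genotypes carried Hnrnpf alleles with loxP sites (Hnrnpf fl/fl). The Hnrnpf bKO mice in addition carried a Cre that is active in the B lineage, which WT mice lacked. Deletion by this Cre was incomplete in some cells, the sequencing was a single experiment, and it is not stated whether cells of several mice were pooled.

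Inhibitory receptors set the threshold at which a B cell answers its antigen receptor. Most carry an immunoreceptor tyrosine-based inhibitory motif (ITIM) in the part that faces the cytosol. When the Src-family kinase Lyn phosphorylates the tyrosine of an ITIM, the motif recruits the tyrosine phosphatase SHP-1 (Ptpn6) or the lipid phosphatase SHIP-1 (Inpp5d), which damp calcium flux and growth signals. CD22 and Siglec-G read sialic acid on neighbouring glycans, FcγRIIB reads IgG in immune complexes, PIR-B binds MHC class I, CD72 binds semaphorin 4D and BTLA binds HVEM. CD5 marks B-1 cells and T cells, and CD37 is a tetraspanin that organizes other membrane proteins. hnRNPF binds runs of G in RNA and influences the choice of exons.

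The tyrosine motifs on which most of these receptors depend are shown as coding sequence for Fcgr2b, Cd22, Siglecg, Btla and Inpp5d. Sequences are those of GENCODE M21 transcripts on GRCm38, 5′ to 3′, and capitals mark the tyrosine codon. An ITIM was counted where a serine, isoleucine, leucine or valine stood ahead of any residue, a tyrosine, any pair of residues and then isoleucine, leucine or valine, on the cytosolic side of the most hydrophobic window of 19 residues. The ITSM of Btla has threonine at the start of the motif, and the NPXY of Inpp5d is the tyrosine motif by which SHIP-1 binds the adaptor Shc.
Fcgr2b, ITIM, exon 8 of 8, chr1:170961071-170961088, minus strand: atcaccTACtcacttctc
Cd22, ITIM 1, exon 12 of 14, chr7:30867494-30867511, minus strand: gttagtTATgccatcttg
Cd22, ITIM 2, exon 13 of 14, chr7:30867033-30867050, minus strand: gtcactTACtcggtgata
Cd22, ITIM 3, exon 14 of 14, chr7:30866600-30866617, minus strand: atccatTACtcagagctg
Cd22, ITIM 4, exon 14 of 14, chr7:30866540-30866557, minus strand: gtagacTATgtgaccctc
Siglecg, match 1, exon 11 of 12, chr7:43412688-43412705, plus strand: ctggacTACatcaatgtg
Siglecg, match 2, exon 12 of 12, chr7:43417979-43417996, plus strand: ctccacTATgctgctctc
Siglecg, match 3, exon 12 of 12, chr7:43418048-43418065, plus strand: tctgatTACacagaggtc
Btla, ITIM, exon 6 of 6, chr16:45250490-45250507, plus strand: attgttTATgcttctttg
Btla, ITSM, exon 6 of 6, chr16:45250565-45250582, plus strand: acagaaTATgcatccatt
Inpp5d, NPXY 1, exon 25 of 27, chr1:87715078-87715089, plus strand: aatccaaacTAC
Inpp5d, NPXY 2, exon 26 of 27, chr1:87717763-87717774, plus strand: aacccactgTAT
By this search Cd22 had 4 ITIM matches, Siglecg and Pirb 3 each, Cd72 2, and Fcgr2b, Btla and Cd5 1 each. Another Cd5 match began inside the hydrophobic window and was not counted. The main Cd37 transcript encoded no match. In Fcgr2b, Cd22, Siglecg and Btla the motifs lay in the last exons of the transcript.

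The deposited counts summed to between 15698567 and 18908963 per library. Hnrnpf, the targeted gene, was read 5780 and 6634 times in the WT libraries, against 1167 and 1194 times in those of Hnrnpf bKO, or 20.1% of WT by the fitted fold change. The B cell markers summed to 15381 and 15499 CPM (counts scaled to library size) in WT and to 14806 and 14869 CPM in Hnrnpf bKO, and 5 of these 10 genes fell and 2 rose. T cell markers summed to between 56.4 and 88.6 CPM, with overlapping genotypes. Monocyte, macrophage and neutrophil markers summed to 24.5 and 29.5 CPM in WT and to 29.7 and 41.3 in Hnrnpf bKO, and dendritic cell markers to 13.3 and 17.2 CPM in WT and to 23.2 and 29.4 in Hnrnpf bKO. Among the B cell subsets, marginal zone and B1 markers summed to 441 and 437 CPM in WT and to 395 and 406 in Hnrnpf bKO, with 1 of 7 rising and 2 falling, and transitional B cell markers to 423 and 433 CPM in WT and to 390 and 414 in Hnrnpf bKO. Of the latter, Cd93, on which the sort selected negative cells, rose by 0.85 on the log2 scale (edgeR adjusted p = 0.00661). Plasma cell markers summed to 328 and 353 CPM in WT and to 326 and 321 in Hnrnpf bKO, and NK cell and erythroid markers to at most 10.9 CPM in any library, with overlapping genotypes. No marker of the 9 lists was at 0 in all libraries. In this bulk RNA, fewer cells of a type and less RNA per cell cannot be told apart.

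Of the 9 genes, 4 rose in Hnrnpf bKO FOB cells (Siglecg, Fcgr2b, Cd37 and Btla), 1 fell (Inpp5d), and 4 did not pass the test (Cd22, Cd72, Pirb and Cd5). A gene counts as risen or fallen here where its p from the quasi-likelihood test of edgeR, adjusted by Benjamini-Hochberg over all 14123 genes, was 0.05 or less. The changes were small, since the largest absolute log2 fold change among the 9 was 0.33, and none of the 9 passed with a fold change of at least 2 (0.899% of all genes tested did). Over all genes tested 6.97% were called, 4.15% higher and 2.83% lower in Hnrnpf bKO. Among the 3970 genes whose mean was 1000 counts or more, where 8 of the 9 members lie, 12.9% were called, 7.33% higher and 5.59% lower. The libraries of the 2 genotypes did not overlap for 6 members, against 50.1% of all genes tested. The median log2 fold change of the 9 was 0.02, and that of all genes was -0.002.

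**Figure D1:**
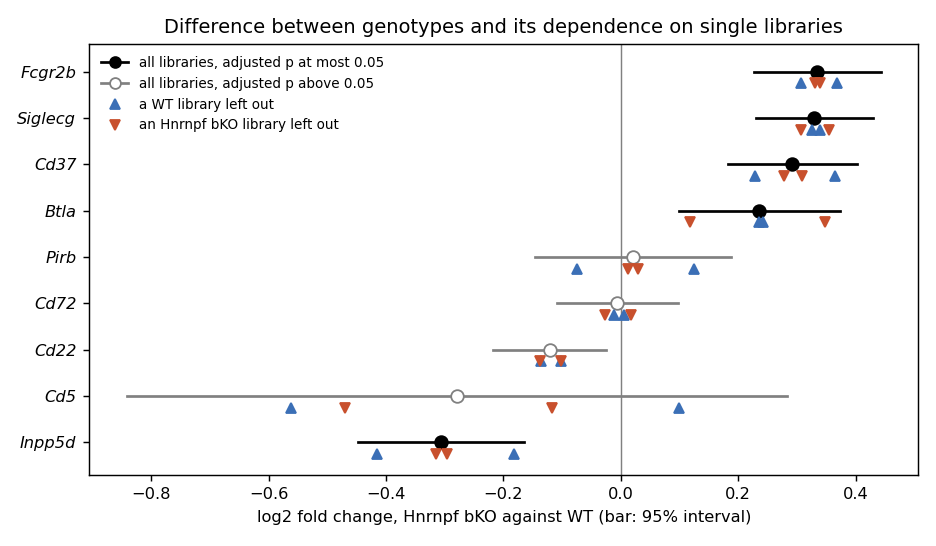
Log2 fold change of each gene in Hnrnpf bKO against WT (x axis), with the 95% interval as a bar, black where the gene passed the test and open grey where it did not. Triangles give the same value with 1 library left out. Siglecg, Fcgr2b and Cd37 stayed to the right of 0 with any library left out, and Btla moved from 0.24 to 0.12 without Hnrnpf bKO replicate 1.

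The sialic acid receptors did not move together. Siglecg (chr7:43408204-43418358), which restrains B-1 cells and to a lesser degree conventional B cells, was at 867 and 874 CPM in WT and at 1076 and 1111 CPM in Hnrnpf bKO. Both Hnrnpf bKO libraries stood above both WT libraries, and the spread within each genotype was small beside the gap. Its log2 fold change was 0.33 ± 0.05 (SE, n = 2 per genotype), 126% of WT, with an edgeR adjusted p of 0.000923. Cd22 (chr7:30865402-30880342), the dominant sialic acid receptor of mature B cells, was at 2118 and 2164 CPM in WT and at 1994 and 1943 CPM in Hnrnpf bKO. Its libraries did not overlap either, in the opposite direction, but the log2 difference of -0.12 ± 0.04 (SE) did not pass, with an edgeR adjusted p of 0.135 and a 95% interval from -0.22 to -0.02. Without the filter on low counts, Cd22 passed at an adjusted p of 0.0482. The ratio of Siglecg to Cd22, both in FPKM, a level scaled to library size and gene length, was 0.429 and 0.424 in WT and 0.566 and 0.60 in Hnrnpf bKO. This ratio is given as a description, with no test. The coding sequence of Siglecg matches Gm29791 over 20.2% of its length, at 98.4% identity in the longest match. That of Cd22 matches Gm29439 over 17.9%, at 91.4% identity in the longest match. Gm29439 also lies on the opposite strand and shares 9.50% of the exonic bases of Cd22. Reads in these stretches may be uncounted.

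Fcgr2b (chr1:170958617-170976547) encodes the Fc receptor for IgG of B cells, which dampens a response once antibody is present in immune complexes. It was at 256 and 245 CPM in WT and at 315 and 316 CPM in Hnrnpf bKO. The Hnrnpf bKO libraries lay close together and above both WT libraries. The log2 fold change was 0.33 ± 0.05 (SE, n = 2 per genotype), 126% of WT, with an edgeR adjusted p of 0.00156. Macrophages and dendritic cells also express Fcgr2b. Of 7 tested monocyte, macrophage and neutrophil markers, the neutrophil genes S100a8 and S100a9 rose, by 1.53 and 1.34 on the log2 scale, and of 4 tested dendritic cell markers Flt3 rose, by 1.12. The macrophage markers Adgre1, Cd68 and Csf1r had log2 differences of -0.86, -0.55 and -0.21 and the dendritic cell marker Itgax of -0.57, none of which passed. In the other direction, Itgam and Lyz2 of the first list had 0.71 and 0.56, and Siglech and Zbtb46 of the second 0.56 and 0.38. These did not pass either. The part of such cells in the Fcgr2b result was not tested. The coding sequence of Fcgr2b matches Fcgr3 over 50.2% of its length at up to 96.3% identity, so reads there may be uncounted, and Fcgr3 itself had between 4 and 10 counts per library.

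Pirb (chr7:3711409-3720391) encodes the inhibitory partner of the activating PIR-A receptors. It was at 75.0 and 65.2 CPM in WT and at 70.6 and 71.4 CPM in Hnrnpf bKO. Both Hnrnpf bKO libraries fell between the WT libraries. The log2 difference was 0.02 ± 0.08 (SE), with a 95% interval from -0.15 to 0.19 and an edgeR adjusted p of 0.921, and its sign turned to -0.08 without WT replicate 2. These values are uncertain because 75.3% of the coding sequence is at least 90% identical to 1 of 9 other genes, Pira2 and Lilra6 among them.

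Cd72 (chr4:43446462-43454628) encodes a receptor that is anchored in the membrane by its amino-terminal side and binds semaphorin 4D. It was at 499 and 504 CPM in WT and at 507 and 492 CPM in Hnrnpf bKO. The genotypes overlapped completely, with the WT libraries between those of Hnrnpf bKO. The log2 difference was -0.01 ± 0.05 (SE), the 95% interval ran from -0.11 to 0.10, and the edgeR adjusted p was 0.966. Its sign turned to 0.005 without WT replicate 2 and to 0.02 without Hnrnpf bKO replicate 2. Tesk1 on the opposite strand shares 41.6% of the exonic bases of Cd72. It was at 41.0 and 40.5 CPM in WT and at 42.9 and 43.9 in Hnrnpf bKO, and did not pass (edgeR adjusted p = 0.568).

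Btla (chr16:45224315-45257670) encodes an inhibitory receptor of B and T cells that recruits SHP-1 and SHP-2. It was at 1163 and 1166 CPM in WT and at 1482 and 1262 CPM in Hnrnpf bKO. Both Hnrnpf bKO libraries were above WT, but they differed from each other by more than the lower of them differed from WT. The log2 fold change was 0.24 ± 0.06 (SE, n = 2 per genotype), 118% of WT, with an edgeR adjusted p of 0.0421. It rested on Hnrnpf bKO replicate 1. Without that library the log2 fold change was 0.12 and the adjusted p 0.409.

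Cd5 (chr19:10717116-10739002) had the fewest counts of the 9 genes. Its WT libraries held 68 and 125 counts and its Hnrnpf bKO libraries 61 and 89, that is 4.16 and 6.57 CPM in WT and 3.89 and 4.97 CPM in Hnrnpf bKO. The genotypes overlapped, and the log2 difference of -0.28 ± 0.26 (SE) had a 95% interval from -0.84 to 0.28 and an edgeR adjusted p of 0.606. That interval holds both falls and rises, so the direction is undecided at this depth, and the sign turned to 0.10 without WT replicate 2. In each genotype the library with more Cd5 also had the larger sum of T cell markers, with 59.8 and 88.6 CPM in WT and 56.4 and 76.8 CPM in Hnrnpf bKO. The part of T cells in the Cd5 counts was not tested.

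Cd37 (chr7:45233632-45239115) was the most abundant of the 9 per length of gene. It was at 1861 and 2041 CPM in WT and at 2417 and 2362 CPM in Hnrnpf bKO. The WT libraries were further apart than the Hnrnpf bKO libraries, and the genotypes did not overlap. The log2 fold change was 0.29 ± 0.05 (SE, n = 2 per genotype), 122% of WT, with an edgeR adjusted p of 0.00448.

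Inpp5d (chr1:87620312-87720507), the lipid phosphatase SHIP-1 that FcγRIIB recruits, was the member that fell. It was at 464 and 544 CPM in WT and at 411 and 405 CPM in Hnrnpf bKO. Most of the spread lay in WT, and both Hnrnpf bKO libraries were below both WT libraries. The log2 fold change was -0.31 ± 0.07 (SE, n = 2 per genotype), 80.9% of WT, with an edgeR adjusted p of 0.0134. It rested on WT replicate 2. Without that library the log2 fold change was -0.18 and the adjusted p 0.0898. The ratio of Fcgr2b to Inpp5d in FPKM was 0.725 and 0.591 in WT and 1.01 and 1.03 in Hnrnpf bKO. By FPKM, Fcgr2b RNA was thus below Inpp5d RNA in both WT libraries and level with it in both Hnrnpf bKO libraries. FPKM is a level of RNA and not of protein, and the Fcgr2b level may be too low where reads shared with Fcgr3 are uncounted. No test was made of this ratio.

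On log2(FPKM + 0.1) with limma, none of the 9 passed after adjustment, and 5 had an unadjusted p under 0.05, as did 17.7% of the 13570 genes in that fit. The counts for the 9 were the same on log2(FPKM + 1), where 17.8% of all genes had such a p. In DESeq2 the same 5 genes passed as in edgeR.

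The levels were compared between genes as FPKM, which the authors divided by the exonic size of the gene. In WT the order from high to low was Cd37 (556 ± 38.8 FPKM, SD, n = 2), Cd22 (426 ± 8.43), Btla (344 ± 2.13), Siglecg (182 ± 1.92), Cd72 (147 ± 1.61), Inpp5d (66.5 ± 7.81), Fcgr2b (43.4 ± 1.15), Pirb (15.7 ± 1.48) and Cd5 (1.09 ± 0.354). No neighbours in this order overlapped in their libraries. In Hnrnpf bKO Cd37 stayed first at 675 ± 14.6 FPKM, and Btla (402 ± 47.5) and Cd22 (388 ± 9.11) overlapped. Siglecg followed at 226 ± 3.97, Cd72 at 145 ± 3.91, Fcgr2b at 54.2 ± 0.0919, Inpp5d at 53.4 ± 0.806, Pirb at 15.8 ± 0.0495 and Cd5 at 0.895 ± 0.148. Fcgr2b and Inpp5d were thus in opposite order in the genotypes, though nearly level in Hnrnpf bKO. Together the 9 genes held 0.730% and 0.766% of each WT library's counts and 0.826% and 0.790% of each Hnrnpf bKO library's. This order depends on the length used. Per kilobase of the main annotated transcript, a setting added after seeing the data, Btla stood above Cd22 also in WT (ratio 1.35 in place of 0.808), and Cd72 stood above Siglecg in WT (ratio 1.04 in place of 0.810).

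**Figure D2:**
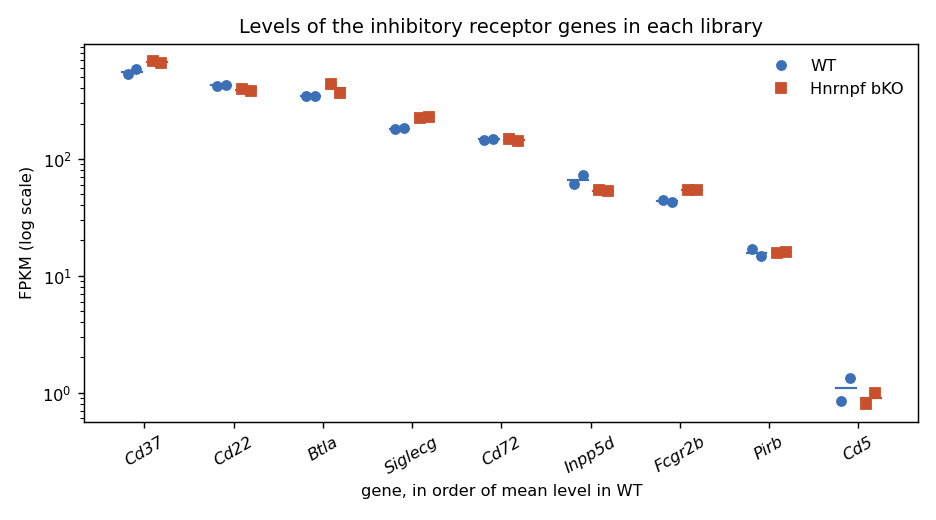
FPKM of each gene in each library on a log scale (y axis), in order of the mean level in WT (x axis). Circles are the 2 WT libraries, squares the 2 Hnrnpf bKO libraries and short lines their means. Btla and Cd22 overlap in Hnrnpf bKO, and Fcgr2b and Inpp5d change places but are nearly level there.

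The deposited splicing table lists 1556 events in 1173 genes, and 2 of the 9 members are in it with 5 events. Fcgr2b has 2 events of the skipped-exon type, and Siglecg has 2 of the retained-intron type and 1 of the skipped-exon type. A type names the class of event and not its direction in Hnrnpf bKO, and events of the same type may concern the same exon. Genes with a listed event made up 8.22% of all genes tested and 12.9% of those whose mean was 1000 counts or more. Cd22, Cd72, Pirb, Btla, Cd5, Cd37 and Inpp5d have none. The table gives gene and type but no position, so which exon or intron is meant is not known here, and the authors' inclusion levels were not used. Both genes listed were also among the 4 of the 9 members whose mRNA abundance rose. Of all genes tested 4.15% rose, and of those whose mean was 1000 counts or more, as in both genes, 7.33% rose. The share that rose among genes with a listed event is not given here. A link between listed events and abundance was not tested.

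The annotation shows what splicing can change in these genes. Fcgr2b has 4 protein-coding transcripts, and they differ in exon 6, which lies between the exon for the membrane-spanning stretch and the ITIM exon. Exon 6 (chr1:170963325-170963465, minus strand) has 141 bases, a multiple of 3, and codes 47 residues of the cytosolic tail. With this stretch the receptor is the form known from B cells that resists internalization, and the form without it is the one known from macrophages. Transcripts Fcgr2b-201 and Fcgr2b-204 hold the whole exon, Fcgr2b-202 skips it and Fcgr2b-203 uses its first 57 bases, for proteins of 340, 340, 293 and 312 residues that all end in the same ITIM. The exon is shown with the part kept in the short form in capitals.
Fcgr2b, exon 6: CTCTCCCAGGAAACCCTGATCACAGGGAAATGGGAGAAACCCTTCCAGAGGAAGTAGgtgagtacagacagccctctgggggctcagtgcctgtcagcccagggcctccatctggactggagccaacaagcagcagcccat
It holds 4 runs of GGG or longer on the transcribed strand. In the first 141 bases of 42413 internal exons of tested genes the median was 1 run, 77.5% had a run and 8.48% had 4 or more. Fcgr2b exons 2, 3, 4 and 5, with 21, 255, 255 and 123 bases, are also multiples of 3.

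Siglecg has a single protein-coding transcript of 12 exons and 5 transcripts annotated as retained introns. These cover introns 4 to 10, whose sequence could therefore be read. Exons 3 to 9 are all multiples of 3, so that skipping any 1 of them would keep the reading frame, and the membrane-spanning stretch lies in exon 10. Introns 7 to 10 are short and are shown whole, with runs of GGG or longer in capitals, because they had the densest runs of the 7 introns read.
Siglecg, intron 7, chr7:43411462-43411561: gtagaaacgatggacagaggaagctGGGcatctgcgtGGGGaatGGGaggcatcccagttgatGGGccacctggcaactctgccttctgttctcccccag
Siglecg, intron 8, chr7:43411820-43411889: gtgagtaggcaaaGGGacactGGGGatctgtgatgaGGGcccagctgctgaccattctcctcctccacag
Siglecg, intron 9, chr7:43412175-43412431: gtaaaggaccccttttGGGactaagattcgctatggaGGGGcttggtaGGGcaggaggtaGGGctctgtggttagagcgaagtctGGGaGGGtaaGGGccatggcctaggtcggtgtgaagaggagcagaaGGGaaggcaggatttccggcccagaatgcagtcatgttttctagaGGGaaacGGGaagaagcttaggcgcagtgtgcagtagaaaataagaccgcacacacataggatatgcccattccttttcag
Siglecg, intron 10, chr7:43412520-43412614: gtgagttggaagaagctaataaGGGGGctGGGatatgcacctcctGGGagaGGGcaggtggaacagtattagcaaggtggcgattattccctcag
Intron 9 holds 10 runs, and 6.96% of 3419 introns of tested genes that are at least as long hold as many in the same length from their start. Intron 7 holds 4 runs (22.1% of 5394 introns hold as many), intron 8 holds 3 (27.0% of 6658) and intron 10 holds 4 (21.0% of 5541). Introns 4, 5 and 6, which are not shown, hold 15, 6 and 4 runs, and the corresponding shares are 27.6%, 43.1% and 43.6%. In their first 60 bases, 6 of the 7 Siglecg introns held at least 1 run and 5 held at least 2, against 66.3% and 41.3% of 6703 introns. This background is the introns of tested genes that another annotated transcript retains. A run of G is a description of the sequence and not a measured binding site.

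**Figure D3:**
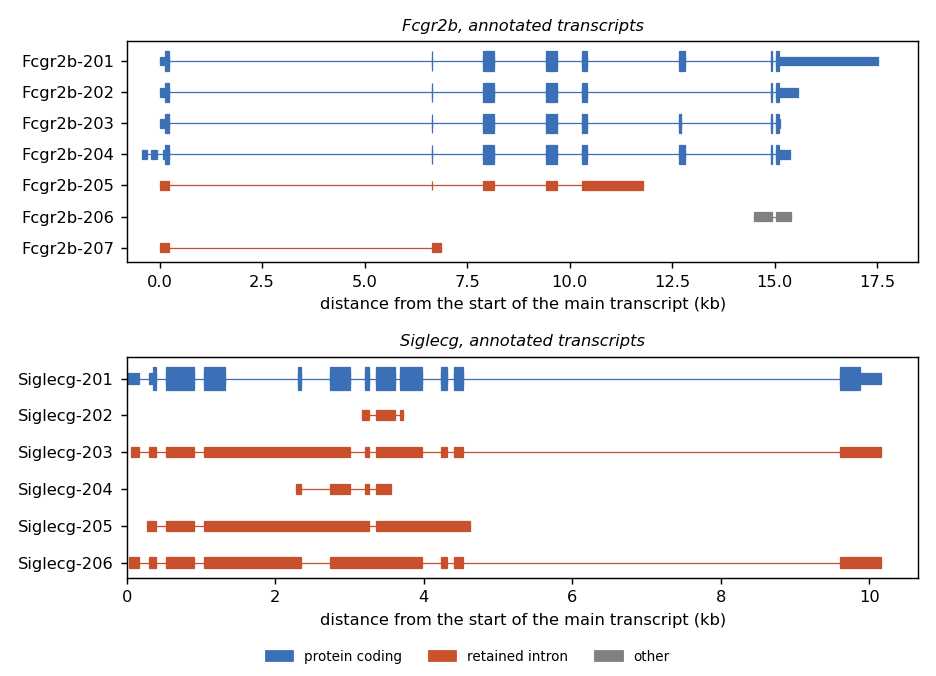
Annotated transcripts of Fcgr2b (upper panel) and Siglecg (lower panel) along the distance from the start of the main transcript in kilobases (x axis). Tall boxes are coding exons, low boxes other exon sequence, blue protein-coding, red retained-intron and grey other transcripts. The protein-coding Fcgr2b transcripts differ in exon 6, which is absent from Fcgr2b-202 and short in Fcgr2b-203, and the 5 red Siglecg transcripts together cover introns between coding exons.

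Other genes of the pathway were taken from 5 lists, in which 83 different genes were tested, 6 rose and 9 fell. That is 18.1% passing, beside 6.97% over all genes tested and 12.9% of those whose mean was 1000 counts or more. The list genes were not matched by depth to the genes they are set beside. The median log2 fold change of the 83 was -0.02.

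Among other inhibitory receptors none of the 13 tested genes passed in edgeR or in DESeq2, and 5 had an unadjusted p under 0.05 in each. Such a p was found for 20.3% of the 14123 genes in edgeR and for 7.2% of 23692 genes in DESeq2. The DESeq2 share includes genes of low count that the filter had removed in edgeR, so it is not a like background for the 13. The count depended on the setting in edgeR, with 4 passing without the filter on low counts, 1 with RLE size factors, 1 with the minimum of 10 counts, 2 without WT replicate 2, 1 without Hnrnpf bKO replicate 1 and 2 without Hnrnpf bKO replicate 2. The 2 most abundant, Fcrla and Fcrl1, members of the Fc receptor-like family, had log2 differences of -0.11 ± 0.05 and -0.01 ± 0.05 (SE) and edgeR adjusted p of 0.193 and 0.939. The median of this list was 0.12.

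Among ligands and ligand-making enzymes 3 of 19 rose and 4 fell. Sema4d, the ligand of CD72, fell by 0.27 on the log2 scale (edgeR adjusted p = 0.00484), while Cd72 itself did not pass. Of 10 genes of sialic acid metabolism in the list 2 fell. Cmah, which makes the sialic acid form that mouse CD22 prefers, fell by 0.21 and St3gal1 fell by 0.31 (edgeR adjusted p of 0.0184 and 0.00351). The other 8, St6gal1, St3gal4, Cmas, Nans, Gne, Slc35a1, Neu1 and Neu3, had log2 differences from -0.13 to 0.64 and did not pass. St6gal1, which makes the linkage that CD22 binds, was among them at 0.10 ± 0.06 (SE). H2-K1 and H2-D1, the MHC class I chains that PIR-B binds, rose by 0.24 and 0.16 (edgeR adjusted p of 0.00621 and 0.0492). They belong to a family of near-copies and are uncertain. Cd200, the ligand of an inhibitory receptor of myeloid cells, rose by 0.35, and Cd274 (PD-L1) fell by 0.37 (edgeR adjusted p of 0.0347 and 0.0134). B2m, the most abundant gene of the list, had a log2 difference of 0.10 ± 0.05 (SE) and an adjusted p of 0.248. Without Hnrnpf bKO replicate 1, the calls of H2-K1, H2-D1, Cmah, Cd200 and Cd274 were lost (adjusted p of 0.0959, 0.354, 0.105, 0.264 and 0.114). H2-D1 was also lost without WT replicate 1 (0.0666) and Hnrnpf bKO replicate 2 (0.130), Cmah without WT replicate 2 (0.0884) and Hnrnpf bKO replicate 2 (0.0658), and Cd200 without WT replicate 2 (0.117). DESeq2 did not call Cd200 (0.0630).

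Among phosphatases, kinases and adaptors 2 of 28 rose and 4 fell. Ptpn6 (SHP-1), the phosphatase most ITIMs recruit, was at 1093 and 1137 CPM in WT and at 952 and 930 CPM in Hnrnpf bKO. The fitted difference was -0.25 ± 0.05 on the log2 scale (SE, edgeR adjusted p = 0.00695). Its genotypes did not overlap, and it fell as Inpp5d did. Pag1, a membrane adaptor that holds the kinase Csk, fell most, by 0.59 (edgeR adjusted p = 3.76e-05). Shc1, an adaptor partner of SHIP-1, fell by 0.33 (edgeR adjusted p = 0.00695). Inppl1 (SHIP-2) rose by 0.39 and Ubash3b, a tyrosine phosphatase, rose by 0.42 (edgeR adjusted p of 0.0153 and 0.0470). Blk, the second most abundant of the list, had a log2 difference of -0.03 ± 0.05 (SE) and an adjusted p of 0.784. Without Hnrnpf bKO replicate 1 the calls of Shc1, Inppl1 and Ubash3b were lost (adjusted p of 0.0520, 0.0536 and 0.281), and without Hnrnpf bKO replicate 2 that of Ptpn6 (0.0532). Inppl1 was also lost without WT replicate 2 (0.0706), and Ubash3b without WT replicate 1 (0.0985) or 2 (0.123). DESeq2 called neither Inppl1 (0.0735) nor Ubash3b (0.209).

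Of the 16 tetraspanins tested, the relatives of Cd37, none rose and 1 fell. This was Tspan32, by 0.26 on the log2 scale (edgeR adjusted p = 0.00695). Cd53 and Cd81, the most abundant of them, had log2 differences of -0.05 ± 0.05 and 0.02 ± 0.05 (SE) and edgeR adjusted p of 0.653 and 0.848. Of 7 Fc and paired activating receptors tested, Fcer2a (CD23), on which the cells were sorted, rose by 0.22 (edgeR adjusted p = 0.0180), and without Hnrnpf bKO replicate 2 it did not pass (0.222). Fcmr, the IgM receptor and the most abundant of this list, had a log2 difference of 0.15 ± 0.05 (SE) and an adjusted p of 0.0688, and passed in DESeq2 (0.0425).

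**Figure D4:**
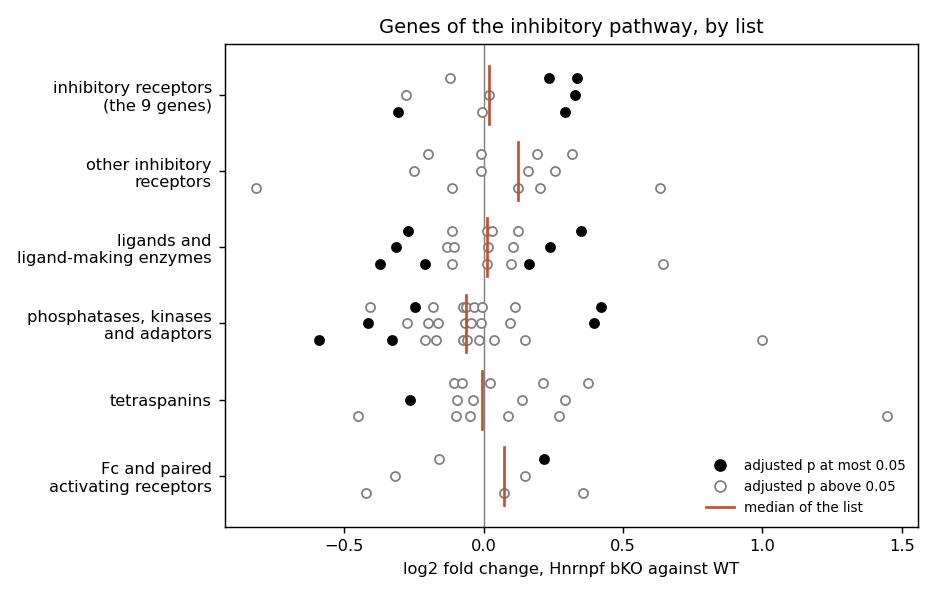
Log2 fold change of each tested gene in Hnrnpf bKO against WT (x axis) for the 9 inhibitory receptor genes and the 5 other lists (rows), filled where the gene passed the test and open where it did not, with the median of each list as a red line. The 9 genes hold 4 filled points to the right of 0 and 1 to the left, and the phosphatases, kinases and adaptors 2 to the right and 4 to the left.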

How the data were processed

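RNA of FACS-sorted FOB cells from 2 WT and 2 Hnrnpf bKO samples was grouped by the sample labels. The submitters' processing notes name bcl2fastq 2.17.1.14, FastQC 0.10.1, Cutadapt 1.9.1, HISAT2 2.0.1 on GRCm38 and HTSeq 0.6.1. The deposited counts are the authors' whole-number HTSeq counts per gene, without normalization. Deposited beside them are the authors' FPKM values, which equal the counts scaled by library total and exonic gene size. The strand setting and annotation release are not given in the sources used here. The authors' splicing table, made with rMATS, was used only for the gene and type of each listed event, and its FDR and inclusion level differences, which are the authors' own comparison, were not used.

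Counts were compared with edgeR 4.0.16 in R 4.3.3 (TMM, filterByExpr, quasi-likelihood F test, genotype as the only term) over 14123 genes, and checked on simulated data. CPM values are scaled with the TMM factors for genes and with the count totals for marker sums. The common dispersion was 0.00348, and log2 fold changes had a median SE of 0.08 where a gene averaged 100 counts or more and of 0.40 where it averaged fewer. The replicate libraries differed by more than sampling noise. Nothing says that replicates came from separate animals, so p-values weigh a difference only against the spread between these libraries. Intervals of 95% are for the log2 fold change and rest on that same spread, with the dispersion estimated with the help of all genes.

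Alternatives were RLE size factors, DESeq2 1.42.0, no filter, a minimum of 10 counts per library, limma 3.58.1 on log2(FPKM + 0.1) and log2(FPKM + 1) over genes averaging 0.5 FPKM or more, a block for replicate number, the omission of each library, and a fold change of at least 2. With a library left out, the lone library of its group was assumed to vary like the other group. Named genes were the 9 members, Hnrnpf, and in each list those that passed and the 2 most abundant, with overlapping or near-identical genes named where they bear on a member. Some genes under this rule are not reported here, and single marker genes and sialic acid genes outside it were chosen after their values were seen. The members and lists were chosen with earlier results of these data known. The count minimum of 1000 for abundant genes was chosen after the counts of the members were seen. Near-identical genes were searched with blastn over coding sequences at an identity of at least 90% over at least 150 bases. Motifs were searched in Python 3.11.15 with pandas 2.3.3.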

Additional observations from a re-analysis of the deposited data

How the results depend on the processing

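Siglecg, Fcgr2b and Cd37 passed in each edgeR fit and in the DESeq2 fit at an adjusted p of 0.05 or less. With limma on log2(FPKM + 0.1) and log2(FPKM + 1), 45 and 41 genes were called over the whole table in place of 985, 0 and 0 of the 9 members and 1 and 1 of the genes in the pathway lists. DESeq2 called 620 genes. With a fold change of at least 2, 127 genes, 0 members and 0 list genes were left, which follows from the small changes of the members. Without the filter on low counts 25 list genes passed in place of 15. The cause of the other differences was not tested.

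With a library left out, the number of called genes was 679 to 861, that of members passing 4 to 5 and that of list genes passing 10 to 17. The log2 fold change then ran from -0.075 to 0.12 for Pirb, from -0.026 to 0.016 for Cd72 and from -0.56 to 0.10 for Cd5, with changes of sign and no call. Btla and Inpp5d lost their calls in the libraries named above.

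With the replicate number as a block, 612 genes were called, 4 members passed and Btla did not (log2 fold change 0.23, edgeR adjusted p = 0.0832). List genes passing went from 15 to 11, with Cmah (0.0716), H2-D1 (0.171), Fcer2a (0.0716) and Ubash3b (0.0784) no longer passing. The labels give only the numbers, and libraries of the same number did not deviate together (r = -0.08 across 9875 genes, which are not independent), so they were not treated as pairs.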
